A study of Mus musculus with 6 samples.

Results

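Collagen made by fibroblasts is folded in the endoplasmic reticulum and locked into fibres outside the cell, and 10 genes that encode enzymes and a chaperone of these steps were followed here across Runx1 peak lists from mouse lung fibroblasts. They are the lysyl oxidase genes Lox, Loxl1, Loxl2, Loxl3 and Loxl4, the lysyl hydroxylase genes Plod1, Plod2 and Plod3, the collagen chaperone gene Serpinh1 and the prolyl hydroxylase gene P4ha1. The genes were chosen by name, with earlier results of these data known. All 10 were found among 21887 protein-coding genes of the RefSeq table for build mm10 (GRCm38.p6). A gene was credited with each peak that touched its body or its flanks of 10 kb. That left 23 of 15009 peaks 56 days after bleomycin, 51 of 56316 peaks 14 days after bleomycin and 35 of 25052 peaks after sham injury.

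Runx1 was immunoprecipitated from formaldehyde-fixed lung cells and the recovered DNA was sequenced (ChIP-seq). All groups were labelled as lung fibroblasts of the genotype Col1a2-CreERT2;mTmG and, by the series' design text, as GFP+ cells. Cre is driven there by regulatory sequence of the collagen gene Col1a2, and the mTmG reporter turns recombined cells green. The groups were bleomycin-injured lungs collected at day 56 (D56), bleomycin-injured lungs collected at day 14 (D14) and sham-injured lungs, with bleomycin given into the trachea. Each group had 1 Runx1 ChIP library and 1 input library, so there were no replicates, no test between groups and no p-values. The sources used here do not give the age and sex of the mice, the number pooled per library, the tamoxifen schedule or the day of sham collection. Fibrotic activation and memory are the subjects named in the title, so the lists were compared at D56 against both others and at D14 against sham.

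RUNX1 binds DNA together with its partner CBFB at sites built around a TGTGGT core, and acts as an activator or a repressor depending on the site. Lysyl oxidases are copper enzymes that oxidise lysines of collagen and elastin outside the cell, which starts covalent crosslinking and stiffens the matrix. Lysyl hydroxylases modify lysines inside the cell before the triple helix forms, and prolyl 4-hydroxylase hydroxylates prolines, which keeps the helix stable at body temperature. Crosslinking of this kind is known for making scar tissue hard to remodel in fibrotic lung.

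The D14 ChIP library held 78744701 tags, against 49669125 at D56 and 48816721 in sham, and the inputs held 49312043 tags at D14, 19949187 at D56 and 39609538 in sham. The caller scaled the larger of each ChIP and input pair to the smaller. The pileup (the height of the ChIP signal at a summit) and the fold enrichment (that height over the local background) are the authors' values for each library apart. They are given below to describe and rank peaks within a list, and a difference in pileup between libraries is not a difference in binding. In pooled chromatin, more bound cells and more binding per cell cannot be told apart.

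RefSeq promoter sequences (GRCm38.p6) were held for 5 of the 10 genes, and D14 and D56 peaks met all 5 of these promoters while sham peaks met 4. Across the table, 27% of 32851 promoters were met by a peak at D56, 40.2% at D14 and 31.7% in sham. The 5 promoters are shown because they hold bases under the gene-end peaks described below. Each runs 5′ to 3′ on the strand of its gene, from 250 bases before the start site to 50 after it. The RUNX letters TGTGGT and TGCGGT, the letters CCGGAA found in binding sites of ETS transcription factors and the letters TGANTCA of AP-1 sites were searched on both strands, and matches are in capitals. The ETS and AP-1 letters were added after the data had been seen.
Plod3, chr5:136986769-136987068, plus strand: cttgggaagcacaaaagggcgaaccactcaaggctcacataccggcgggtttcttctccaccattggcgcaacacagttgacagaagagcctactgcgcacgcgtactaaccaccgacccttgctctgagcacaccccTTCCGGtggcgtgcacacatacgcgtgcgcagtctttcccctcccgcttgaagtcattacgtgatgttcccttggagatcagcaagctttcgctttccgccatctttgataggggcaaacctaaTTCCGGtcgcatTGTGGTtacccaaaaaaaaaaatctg
Serpinh1, chr7:99353190-99353489, minus strand: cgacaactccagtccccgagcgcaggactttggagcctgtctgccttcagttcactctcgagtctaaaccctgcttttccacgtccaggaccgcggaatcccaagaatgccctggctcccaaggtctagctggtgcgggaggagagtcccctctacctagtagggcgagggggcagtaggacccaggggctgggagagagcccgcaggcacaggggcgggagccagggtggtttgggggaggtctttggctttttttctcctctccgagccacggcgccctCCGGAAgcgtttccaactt
P4ha1, chr10:59323046-59323345, plus strand: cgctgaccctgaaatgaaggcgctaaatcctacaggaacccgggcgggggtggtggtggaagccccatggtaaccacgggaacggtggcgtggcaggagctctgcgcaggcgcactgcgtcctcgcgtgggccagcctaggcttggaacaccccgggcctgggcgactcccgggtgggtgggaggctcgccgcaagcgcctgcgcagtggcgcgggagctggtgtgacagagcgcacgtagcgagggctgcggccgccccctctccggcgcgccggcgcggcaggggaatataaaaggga
Plod1, chr4:147936727-147937026, minus strand: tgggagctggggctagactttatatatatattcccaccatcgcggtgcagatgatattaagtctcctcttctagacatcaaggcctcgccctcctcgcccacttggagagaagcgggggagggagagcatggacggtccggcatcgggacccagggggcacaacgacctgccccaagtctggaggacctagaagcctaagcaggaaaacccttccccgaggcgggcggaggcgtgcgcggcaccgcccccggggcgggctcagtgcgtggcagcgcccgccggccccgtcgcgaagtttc
Loxl4, chr19:42612757-42613056, minus strand: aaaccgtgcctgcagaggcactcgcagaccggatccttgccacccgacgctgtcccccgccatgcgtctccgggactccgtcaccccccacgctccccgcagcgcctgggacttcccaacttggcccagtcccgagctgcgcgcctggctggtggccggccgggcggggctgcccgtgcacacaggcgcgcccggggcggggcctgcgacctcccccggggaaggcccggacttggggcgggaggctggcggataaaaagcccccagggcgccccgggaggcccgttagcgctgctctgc

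Plod3 was the only one of the 5 promoters with a RUNX match, a TGTGGT 24 bases after the start site. Its peak summits lay elsewhere, 144 bp from that match at D56, 139 bp at D14 and 141 bp in sham. A CCGGAA on the opposite strand of the same promoter (printed as TTCCGG) lay 8 bp from the D56 summit, 3 bp from the D14 summit and 5 bp from the sham summit. A second CCGGAA on that strand, 12 bases after the start site, lay 132, 127 and 129 bp from the summits in the same order, about as far as the TGTGGT match. Serpinh1 held 1 CCGGAA, 16 bp from the D56 summit and 62 bp from both the D14 and the sham summits. Its D56 and D14 summits lay 52 and 98 bases after the start site, past the bases printed. P4ha1, Plod1 and Loxl4 held none of the 4 motifs in the printed window, which says nothing about other letters or positions. The Plod1 summit at D14, 49 bases after the start site, lay at the edge of that window. Among all promoters, 16.8% held TGTGGT, 6.45% TGCGGT, 22.4% either of these, 14.9% held CCGGAA and 7.81% held TGANTCA. The RUNX pair moved in opposite directions with peaks. TGTGGT was held by 10.7% of promoters with a peak at D56, 11.4% at D14 and 10.7% in sham, against 19.0%, 20.3% and 19.6% of those without one in the same order. TGCGGT was held by 10.8% with a peak at D56, 10.3% at D14 and 10.5% in sham, against 4.85%, 3.84% and 4.59% without. For CCGGAA the shares with a peak were 33.2% at D56, 28.5% at D14 and 32.0% in sham, and without a peak 8.13% at D56, 5.73% at D14 and 6.95% in sham. Base composition was not matched between these promoter groups, and the 5 printed promoters were between 53.3% (Plod3) and 75.0% (Loxl4) G and C.

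Runx1 peaks were called at nearly every one of the 10 genes in each library. At D56, 9 genes had a peak (all but Loxl2), against a background of 53.7% of protein-coding genes. At D14 all 10 had a peak (73.3% of protein-coding genes), and in sham all 10 did (60.3%). The number of peaks per locus was larger at D14 than in sham for 6 genes (Lox, Loxl1, Loxl3, Plod1, Plod2 and P4ha1), equal for 3 and smaller for Plod3 alone. Across protein-coding genes, 51.4% had more peaks at D14 than in sham and 2.39% had fewer. D56 had more peaks than sham at Plod1 alone (3.07% of protein-coding genes), fewer at 6 genes (26.5%), and fewer than D14 at 8 of the 10 genes (57.8%). It had more than D14 at 0 of the 10 (0.854%). The D14 list is the longest, and when each list was limited to its 15009 strongest peaks by p-value the 10 loci held 23 peaks at D56, 18 at D14 and 22 in sham. The larger D14 number therefore rests on peaks below that rank.

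**Figure D1:**
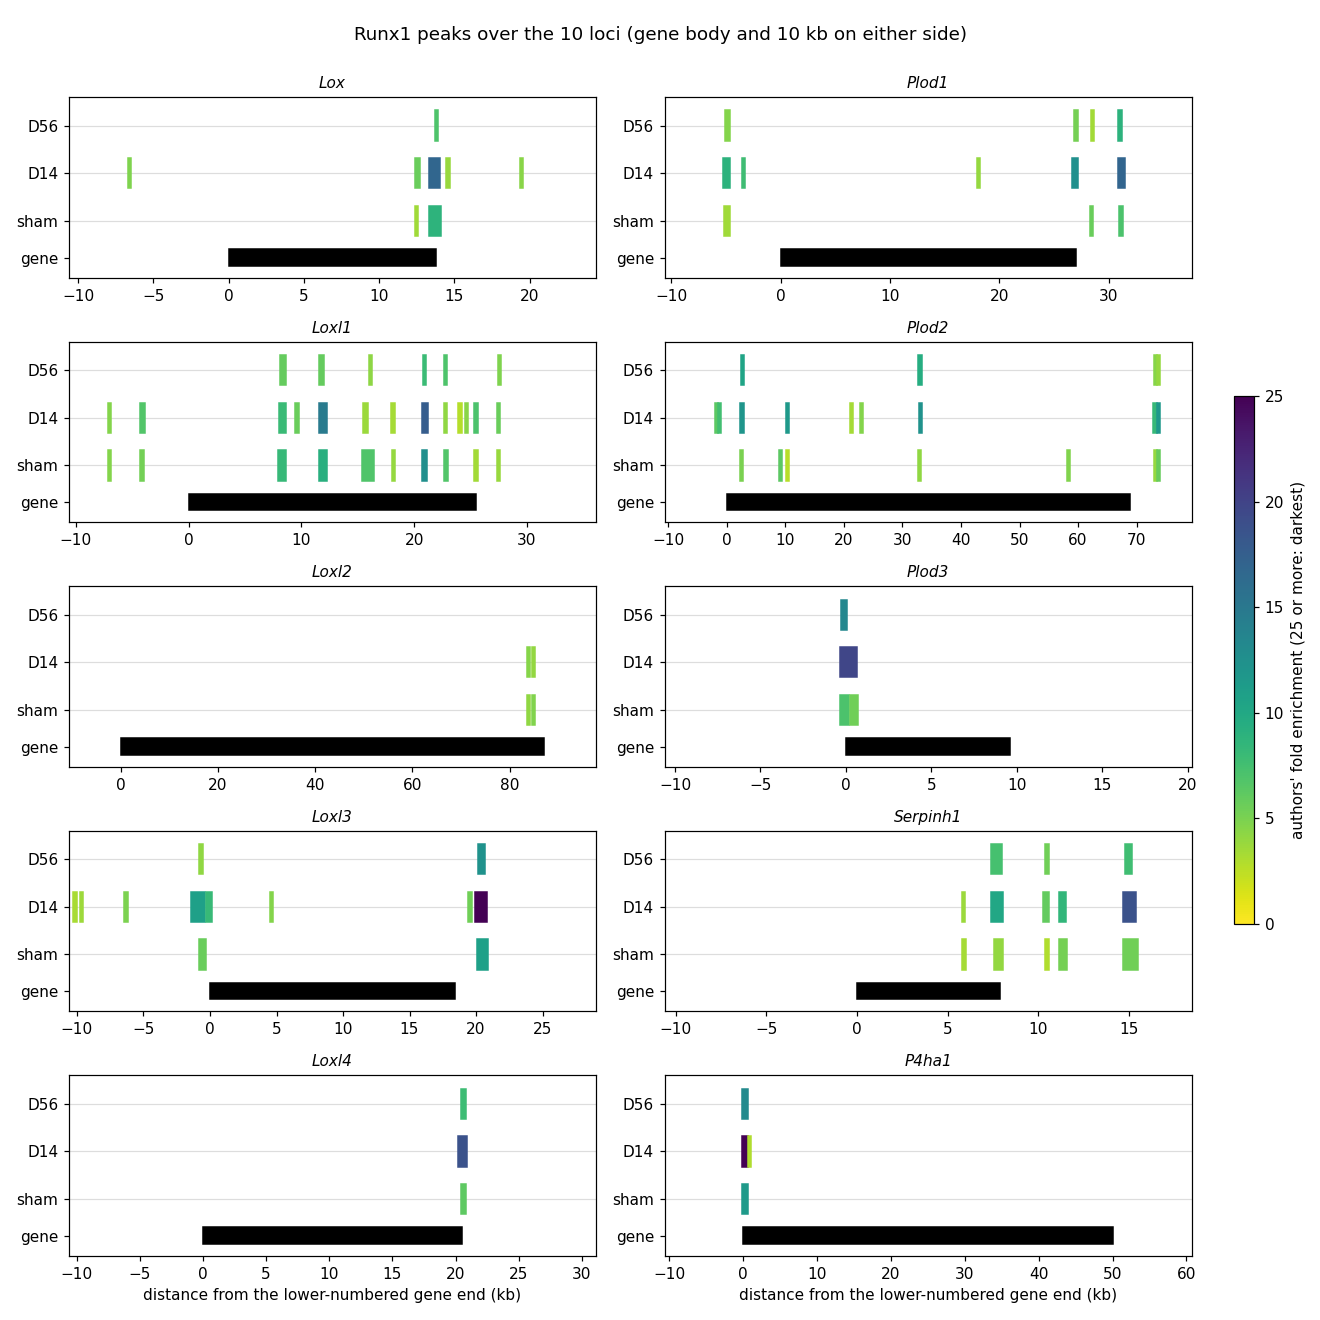
Positions of Runx1 peaks over the 10 loci, as distance in kb from the lower-numbered gene end, with D56, D14 and sham lanes (1 library each) above the gene body in black; colour gives the authors' fold enrichment within each list, and narrow peaks are drawn at a minimum width. Loxl1 carries peaks in each lane from about 8 kb into its body onwards, Plod3, Loxl4 and P4ha1 carry them at a single gene end, and the Loxl2 lane at D56 is empty.

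The lysyl oxidase loci held 10 peaks at D56, 29 at D14 and 17 in sham, and Loxl1 alone held 6, 13 and 10 of them in the same order. Loxl1, whose product is best known for elastic fibre upkeep, spans 25.5 kb of chromosome 9 (58287723 to 58313212). Its peak density was 1.32 per 10 kb at D56, 2.86 at D14 and 2.20 in sham, at percentiles 98.8, 99.5 and 99.3 of protein-coding genes in those lists. None of these peaks met the body of another gene. The 13 regions over Loxl1, after joining overlapping peaks of the libraries, included 6 called in all 3 libraries, 4 in D14 and sham and 3 at D14 alone. In 1 of the 6 (58303112 to 58304200), a wide sham peak joins a D14 peak and a D56 peak that do not overlap each other.

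In each library the highest fold at Loxl1 belonged to an intragenic peak, called over 58308489 to 58308791 at D56, 58308379 to 58308905 at D14 and 58308391 to 58308899 in sham. Its pileup was 30 at D56, 122 at D14 and 78 in sham, and its fold was 7.98 at D56, 17.7 at D14 and 12.6 in sham. It ranked at percentile 63.6 of the D56 list, 92.7 of the D14 list and 97.7 of the sham list. A further peak inside the gene, near 11.8 kb from the lower end, had a pileup of 22 and a fold of 5.87 at D56, 98 and 14.7 at D14, and 81 and 9.22 in sham. Among the strongest peaks of equal number, Loxl1 kept 6 peaks at D56, 2 at D14 and 6 in sham, so at this locus the order of D14 and sham turned with the list length. At the upper gene end a peak was called at D14 (pileup 41, fold 7.06) and in sham (pileup 30, fold 3.45), and none at D56.

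Lox, the founding member of the family, lies on chromosome 18 (52516060 to 52529867). A peak spanning its upper gene end was called in every library, with a pileup of 34 and a fold of 7.03 at D56, 113 and 16.9 at D14, and 60 and 8.87 in sham. The 3 summits at that end lay within 40 bp of each other. The 4 other D14 peaks at Lox had folds of 3.90 to 5.68, and 1 of them, inside the gene, met a sham peak of fold 3.59. The gene-end peak was thus the only one at Lox called at D56.

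Loxl3, a paralogue active in cartilage and palate development, had 2 peaks at D56, 8 at D14 and 2 in sham. Its strongest peak had a fold of 12.3 at D56, 27.9 at D14 and 10.9 in sham, with pileups of 42, 166 and 107 in that order, but it lies 2 kb beyond the upper end of Loxl3 and meets the neighbouring genes Htra2 (a mitochondrial protease) and Aup1. A second peak called in all libraries, with folds of 4.18 at D56, 10.9 at D14 and 5.74 in sham, meets the body of Dok1, an adaptor protein gene. Of the 6 remaining D14 peaks, none with a sham or D56 overlap, 3 meet M1ap and 1 meets Htra2. The other two are nearest to Loxl3 itself, a peak across its lower gene end at 83033898 to 83034384 (pileup 63, fold 8.11) and a weaker one inside the gene (pileup 26, fold 4.65). The gene-end peak begins just past the shared peak at Dok1, which ends at 83033832 at D14 and at 83033885 in sham. It was joined to that peak when peaks under 500 bp apart were merged, which left Loxl3 with 5 peaks at D14. When peaks were given to their nearest protein-coding gene only, Loxl3 kept 0 peaks at D56, 2 at D14 and 0 in sham.

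Loxl4 had 1 peak in each library, across its start site. Its pileup was 22 at D56, 111 at D14 and 50 in sham, its fold 7.83, 18.7 and 6.18 in that order, and its summit lay 85, 116 and 20 bases before the start site. Loxl2, which crosslinks collagen IV of basement membranes, was the one locus with no D56 peak. Both of its D14 peaks (pileups 40 and 18, folds 4.56 and 4.10) overlapped both of its sham peaks (pileups 20 and 24, folds 4.13 and 4.77), 2 to 3 kb inside the upper gene end. None of its peaks was among the 15009 strongest of a list, and none lay near its lower gene end.

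**Figure D2:**
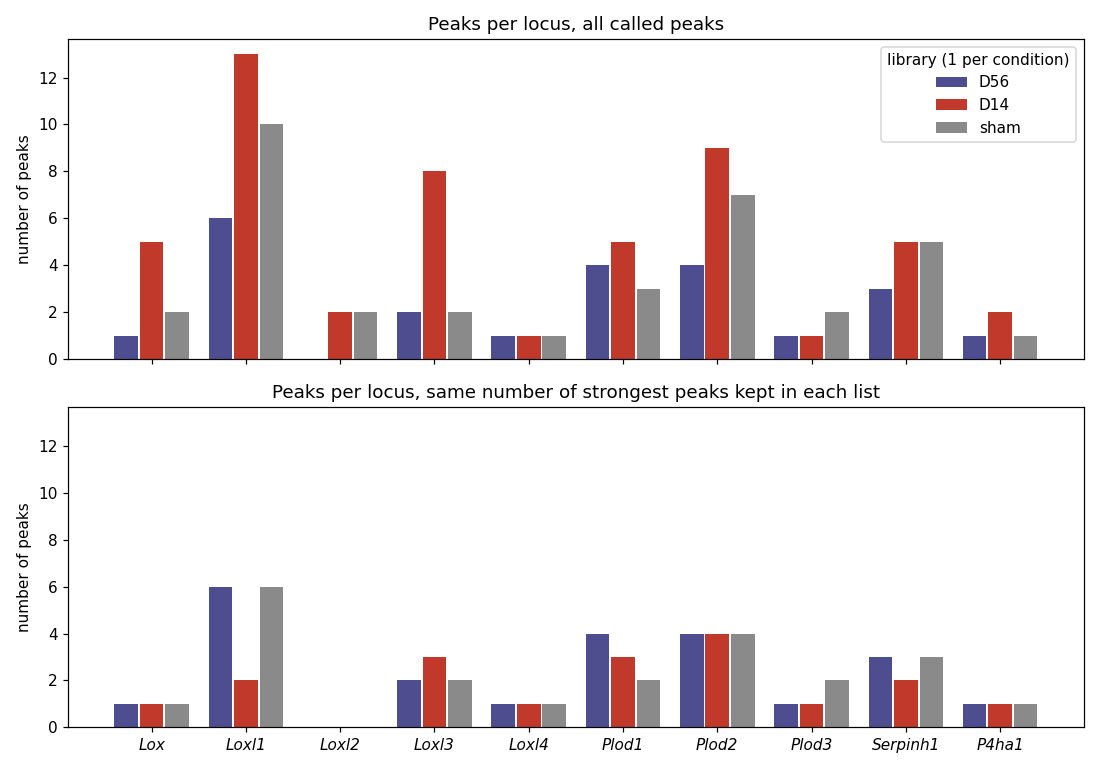
Number of peaks per locus (gene body and 10 kb on either side) at D56, D14 and in sham, 1 library each, with all called peaks in the upper panel and the 15009 strongest peaks of each list in the lower. With all peaks Loxl1 has 6, 13 and 10, and with equal lists 6, 2 and 6.

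The lysyl hydroxylase loci held 9 peaks at D56, 15 at D14 and 12 in sham. Plod2 encodes the hydroxylase of collagen telopeptides, which sets the pyridinoline type of crosslink found in fibrotic tissue. It spans 68.8 kb of chromosome 9 (92539636 to 92608428) and had 4 peaks at D56, 9 at D14 and 7 in sham. None of its summits lay within 1 kb of a gene end. Of the peaks inside the gene, the one nearest to the lower end, at 2.5 to 2.6 kb, was called in each library. It had a pileup of 26 and a fold of 10.4 at D56, 106 and 11.9 at D14, and 43 and 5.00 in sham. This peak also meets the lncRNA B430319G15Rik. A second peak, 33 kb inside, had a pileup of 23 and a fold of 9.50 at D56, 97 and 12.3 at D14, and 40 and 4.16 in sham.

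The Plod2 peaks ranked differently in the lists. By fold, these 2 intragenic peaks stood at percentiles 80.9 and 75.5 of the D56 list and 84.0 and 84.9 of the D14 list. In the sham list they stood at 48.0 and 27.9. By pileup they stood at 58.6 and 49.9 at D56, 89.7 and 87.7 at D14, and 60.3 and 56.8 in sham. Lists of different length give no measure of change. The local background implied by pileup and fold was 0.994 and 0.954 times the genome-wide value at D56, 2.29 and 1.99 times at D14, and 2.22 and 2.52 times in sham. Outside the gene, 4.4 and 4.96 kb past the upper end, 2 further peaks were called in all 3 libraries. By fold they stood at percentiles 11.7 and 4.73 at D56, 71.1 and 83.4 at D14, and 23.7 and 61.3 in sham. At D56 these 2 thus ranked below their sham places, opposite to the 2 intragenic peaks. Just before the lower end, 2 peaks (folds 6.30 and 7.56) were called at D14 and not at D56 or in sham. A further 2 peaks, inside Plod2, were called in sham and not at D14 or D56 (pileups 28 and 25, folds 6.32 and 4.77). Of all sham peaks, 8.31% lacked a D14 overlap.

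Plod1, which hydroxylates helical lysines, had a gene-end peak in both bleomycin libraries and none in sham. A peak across its start site was called at D56 (147936690 to 147936868, pileup 13, fold 5.23) and at D14 (147936383 to 147936963, pileup 72, fold 12.5). It was the only D56 peak of the 10 loci without a sham overlap, against 3.59% of all D56 peaks. The D56 call was a weak one, at percentile 23.9 of its list by fold, and the lowest pileup in that list was 10. A different pattern was seen 1.4 to 1.5 kb before the start site. There a peak was called at D56 (pileup 12, fold 3.46) and in sham (pileup 34, fold 5.71) and none at D14. Its nearest protein-coding gene is 2510039O18Rik, and by nearest gene Plod1 kept 1 peak at D56, 2 at D14 and 0 in sham (4, 5 and 3 by window). Regions called in D56 and sham alone numbered 56 of 57567 (0.0973%) across the genome, and regions called in D56 and D14 alone 477 (0.829%). The other peaks called in every library at Plod1 meet neighbours, the mitochondrial fusion gene Mfn2 (folds 4.62 at D56, 8.90 at D14 and 3.53 in sham) and the gene model 2510039O18Rik (8.92, 17.0 and 7.06 in the same order).

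Plod3, which encodes a lysyl hydroxylase that also adds sugars to hydroxylysine, had 1 peak at D56, 1 at D14 and 2 in sham, all at its lower gene end. The pileup there was 39 at D56, 164 at D14 and 77 in sham for the stronger peak, with folds of 13.5, 19.7 and 7.10 in that order. The second sham peak (136987261 to 136987710, fold 5.38) fell inside the span of the single D14 peak (136986676 to 136987685) over most of its length. The summits of the stronger peak lay 120 bp before the start site at D56, 115 bp at D14 and 117 bp in sham. The neighbouring zinc finger gene Znhit1 overlaps this end, so the peak cannot be given to Plod3 alone. By nearest gene, Plod3 kept 0 peaks at D56, 0 at D14 and 1 in sham.

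Serpinh1 encodes HSP47, the chaperone that binds the folded collagen triple helix in the endoplasmic reticulum. The gene spans 7.87 kb of chromosome 7 (99345375 to 99353239), is transcribed from its upper end, and had 3 peaks at D56, 5 at D14 and 5 in sham. Its density was 1.08 peaks per 10 kb at D56 (percentile 97.6), 1.79 at D14 (96.1) and 1.79 in sham (98.8). All 5 D14 peaks overlapped a sham peak and 3 overlapped a D56 peak, and all 5 regions have Serpinh1 as their nearest protein-coding gene.

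The strongest peak by pileup at Serpinh1 lay 7.1 kb before the start site, at 99360160 to 99360578 at D56, 99360078 to 99360783 at D14 and 99360068 to 99360879 in sham. Its pileup was 44 at D56, 153 at D14 and 101 in sham, and its fold was 7.66 at D56, 18.7 at D14 and 5.39 in sham. The local background implied by these values was 3.04 times the genome-wide value at D56, 2.08 times at D14 and 5.10 times in sham. A high sham pileup thus came with a low sham fold at this site, and the part of the input in that was not tested. The peak across the start site had a pileup of 28 and a fold of 7.38 at D56, 79 and 10.1 at D14, and 51 and 4.01 in sham, where the implied background was 3.40 times the genome-wide value. Over all peaks, the median of this ratio was 1.40 at D56, 1.43 at D14 and 1.78 in sham.

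P4ha1 encodes a catalytic subunit of collagen prolyl 4-hydroxylase and had the highest fold of the gene-end peaks at the 10 loci at D14. It spans 50.1 kb of chromosome 10 (59323197 to 59373304) and none of its peaks met the body of another gene. The peak across the start site had a pileup of 64 and a fold of 13.1 at D56, 163 and 27.4 at D14, and 102 and 11.5 in sham. It stood at percentile 91.6 of the D56 list, 98.4 of the D14 list and 95.8 of the sham list, and was 819 bp wide at D56, 923 bp at D14 and 829 bp in sham. A weak peak beside it (pileup 16, fold 2.98) was called at D14 alone. The other 49 kb of the gene and the 10 kb past it had no peak in a list, so P4ha1 was at percentile 56.3 by peak density at D56, 44.4 at D14 and 48.5 in sham.

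**Figure D3:**
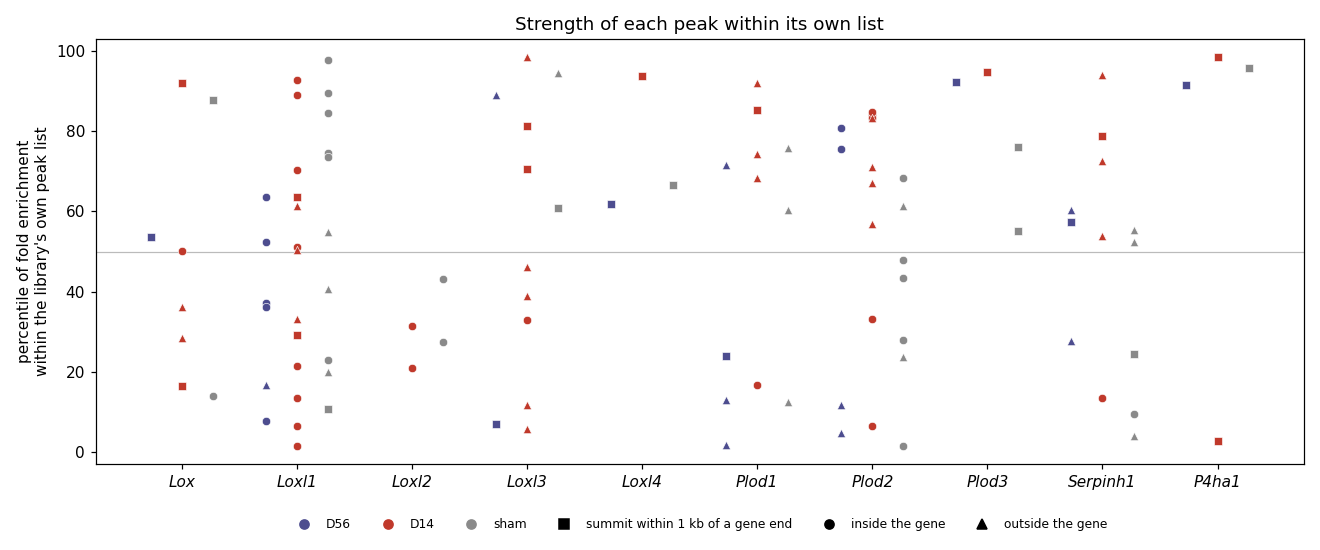
Percentile of each peak's fold enrichment within its own library's list (0 to 100, vertical axis) for the 10 genes, with D56, D14 and sham side by side and symbols for summits within 1 kb of a gene end, inside the gene and outside it. The peak across the P4ha1 start site sits above percentile 90 in each list, while the Loxl2 peaks stay below percentile 50 at D14 and in sham.

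Gene-end peaks had the highest median fold among the D14 peaks of the 10 loci. A summit within 1 kb of either gene end was present at 7 of the 10 genes at D56 (39.4% of protein-coding genes), 8 at D14 (55.9%) and 7 in sham (44.8%). Lox, Loxl3, Loxl4, Plod3, Serpinh1 and P4ha1 had it in each library, Plod1 at D56 and D14, and Loxl1 at D14 and in sham. At Loxl3 the D56 and sham summits were nearest to Dok1, and at Plod3 the D56 and D14 summits were nearest to Znhit1. Of the 12 D14 gene-end peaks, 7 overlapped a D56 peak and 7 a sham peak. Of the 19 D14 peaks inside the genes, 6 overlapped a D56 peak and 13 a sham peak, and of the 20 outside, 8 and 11. The median D14 fold was 10.5 for gene-end peaks, 4.65 inside and 6.53 outside. By share, gene-end peaks made up 30.4% of the loci's peaks at D56, 23.5% at D14 and 22.9% in sham. Among all peaks of those lists the shares were 53.2%, 24.1% and 38.3%, by another measure. Peaks of the loci were placed by the ends of their own member gene, and all peaks by those of their nearest protein-coding gene. A peak of the loci at a neighbour's end could thus be counted as outside, so these shares cannot be compared directly.

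Whether most D14 peaks at the 10 loci were also called in sham turned with the fold required. Of the 51 D14 peaks, 20 had no sham overlap of 1 bp or more (39.2%, 95% Wilson interval 27.0 to 52.9), against 58.9% of all D14 peaks. With a fold of 5 or more in every list, 17 of 31 had none (54.8%, 37.8 to 70.8). That cut also left 19 of the 35 sham peaks at the loci. The share over all D14 peaks at this fold was not computed, so the turn cannot be called particular to the loci. Without Loxl1, a setting added after the data had been seen, the number was 17 of 38 (44.7%, 30.1 to 60.3). With peaks under 500 bp apart merged, it was 12 of 42 (28.6%, 17.2 to 43.6), and the share over all D14 peaks was not computed there. Some of the 20 thus lay close beside another D14 peak. Among equally long lists 4 of 18 had no sham overlap (22.2%, 9.0 to 45.2), against 25.2% of all D14 peaks there. The interval covers counting error only, and neighbouring peaks of 1 locus share their chromatin, so it is too narrow. Median fold was 4.66 for the 20 peaks not met in sham and 8.90 for the 31 that did overlap sham, beside 4.75 and 9.50 in the whole D14 list. Loxl3 held 6 of the 20, Plod2 4, and Lox, Loxl1 and Plod1 3 each, and P4ha1 1, while Serpinh1, Loxl2, Loxl4 and Plod3 held none.

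Each of the 23 D56 peaks met a D14 or a sham peak. The same held for nearly the whole D56 list, as 22 of 57567 joined regions genome-wide (0.0382%) were called at D56 alone. Of the 23 peaks, 22 overlapped a sham peak (95.7%, 79.0 to 99.2) and 21 a D14 peak (91.3%, 73.2 to 97.6). Across the D56 list 3.59% of peaks lacked a sham overlap and 0.613% a D14 overlap. The 2 D56 peaks without a D14 overlap were the one before the Plod1 start site and one inside Loxl1 (58303720 to 58303935, fold 4.23) that lies within a wider sham peak. Of the 51 D14 peaks, 30 had no D56 overlap (58.8%, 45.2 to 71.2), against 74.4% of all D14 peaks, and in lists of equal length 2 of 18 had none (11.1%, 3.10 to 32.8), against 23.1%. Of the 35 sham peaks, 13 had no D56 overlap (37.1%, 23.2 to 53.7), against 44.3% of all sham peaks.

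Joined across libraries, the peaks made 54 regions, of which 21 were called in all 3 libraries (38.9%, against 23.9% of 57567 regions genome-wide) and 19 at D14 alone (35.2%, against 56.8%). A further 10 were called at D14 and in sham (18.5%, against 14.9% genome-wide) and 2 in sham alone (3.7%, against 3.51%). At D56 and D14 there was 1 (1.85%, against 0.829%), at D56 and in sham 1 (1.85%, against 0.0973%), and at D56 alone 0 (0.0382% genome-wide). In the 21 regions called throughout, the summits of the strongest peak per library lay a median of 44 bp apart, and in 18 regions they lay within 100 bp. The widest spread, 631 bp, was inside Loxl1, in the region where a wide sham peak joins D14 and D56 peaks that do not overlap each other.

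**Figure D4:**
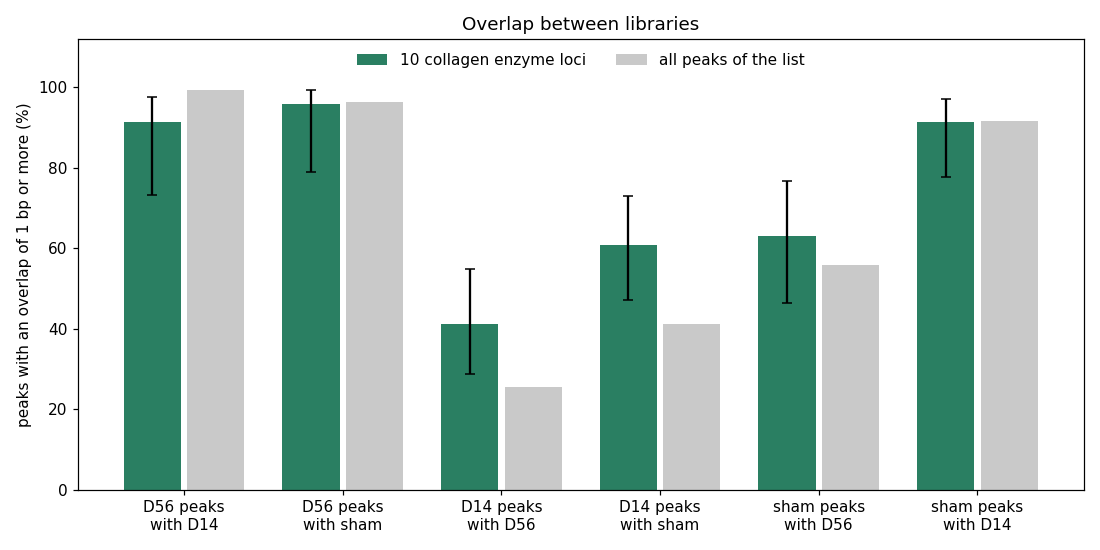
Percent of peaks with an overlap of 1 bp or more in a second library, for the 10 loci (green, with 95% Wilson intervals from 23 D56, 51 D14 and 35 sham peaks) and for all peaks of the same list (grey). D14 peaks of the loci overlap sham in 60.8%, against 41.1% of all D14 peaks, while D56 peaks overlap sham in 95.7%, against 96.4%.

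The other genes of collagen modification, folding, export and propeptide removal were counted from a list of 24 genes. A peak was called at 21 of them at D56 (53.7% of protein-coding genes), 24 at D14 (73.3%) and 22 in sham (60.3%). D14 had more peaks than sham at 19 of the 24 (51.4% of protein-coding genes), as many at 4 and fewer at Hspa5 alone (2.39%), and D56 had fewer peaks than D14 at 22 (57.8%). Of their 123 D14 peaks, 62 had no sham overlap (50.4%, 41.7 to 59.1), against 58.9% of all D14 peaks. Median peak density was 0.279 per 10 kb at D56, 0.937 at D14 and 0.488 in sham for these 24 genes, 0.394, 1.04 and 0.615 for the 10 described above, and 0.0783, 0.347 and 0.158 for all protein-coding genes.

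The highest D14 folds on that list were at P3h1, a prolyl 3-hydroxylase (7.14 at D56, 28.3 at D14 and 15.1 in sham), and Hspa5, the general chaperone BiP (14.9, 26.7 and 12.8 in the same order). P4hb, the protein disulfide isomerase that is the partner subunit of P4ha1, followed with 15.1 at D56, 22.8 at D14 and 11.0 in sham. Mia3, which helps load procollagen into export vesicles, had 7.48 at D56, 22.0 at D14 and 6.88 in sham. P4ha2, a catalytic subunit gene and paralogue of P4ha1, tied with Mia3 at D14 and had 14.7 at D56, 22.0 at D14 and 7.39 in sham. P4hb, P4ha1 and P4ha2 thus had peaks in every library. P4ha3, another catalytic subunit gene, had 0 peaks at D56, 4 at D14 (highest fold 11.6) and 0 in sham. Crtap, whose product works in a complex with P3h1, had 1 at D56 (fold 4.48), 3 at D14 (highest fold 11.5) and 0 in sham.

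Peaks do not measure expression, so the fibroblast label could be looked at only through which marker loci carried peaks. The counts stand beside 53.7% of all protein-coding genes with a peak at D56, 73.3% at D14 and 60.3% in sham. Fibroblast markers had a peak at 7 of 8 genes in each library, with Lum at 0 in all. Endothelial markers had one at 4 of 5 genes at D56, 5 at D14 and 4 in sham. Epithelial markers had one at 0 of 5 at D56, 4 at D14 and 2 in sham, myeloid markers at 0, 3 and 0 of 5, pericyte and smooth muscle markers at 0, 4 and 2 of 4, and mesothelial markers at 0, 2 and 0 of 3 in that order. The D14 list thus met more marker loci of other cell types than the other lists, as it met more genes of the genome, and the part of other cells in the D14 peaks was not tested.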

How the data were processed

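Runx1 ChIP and input DNA were sequenced from 6 libraries, and 3 peak lists, 1 per ChIP library, were analysed; groups came from the sample titles. The submitters' processing notes name BWA, SAMtools, MACS2 and build mm10. Each ChIP library was set against its own input by MACS 2.0.10.20120913 with a q-value cutoff of 0.01, per the file headers, with local background over 1 kb and 10 kb and a scaling of the larger of ChIP and input down to the smaller. Per the file headers, the columns used are the pileup signal, the fold enrichment ratio and the p-value and q-value, both as −log10; these are the authors' values, made for each library apart, and nothing was pooled. The sources used here give no alignment settings.

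Off the main chromosomes, 15 D14 and 7 sham peaks were left out. Peaks and RefSeq gene windows were intersected in Python 3.11.15 (pandas 2.3.3, numpy 2.4.6), and shares carry 95% Wilson intervals (statsmodels 0.14.6) that cover counting error only. The RefSeq gene table gives no strand, so gene ends are called lower and upper unless the promoter table gives one. The local background was taken back from each peak as (pileup + 1) / fold − 1, assuming the caller's usual pseudocount of 1, which the headers do not state, and divided by the genome-wide value from input tags, fragment length and an effective genome size of 1.87 Gb (1.60 at D56, 3.48 at D14, 3.52 in sham); the lowest value in each list was 1.42 at D56, 3.25 at D14 and 3.31 in sham. Percentiles are the share of a list, or of protein-coding genes, with a lower value. In a check of the code, slightly shifted copies of D14 peaks were recovered as overlaps, after close peaks had been merged. That check did not cover clustered or split peaks.

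The members and the gene lists were chosen with earlier results of these data known. Of the 24 other collagen genes, the text names the 4 with the highest D14 fold (5 with a tie for the last place) and those with a D14 peak and no sham peak. Alternatives were equally long lists, fold enrichment of at least 5, q at −log10 of at least 5, merging peaks under 500 bp apart, a window of 2.5 kb, nearest gene only, a reciprocal overlap of 50%, summits within 200 bp and, added after the data had been seen, leaving out Loxl1.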

Additional observations from a re-analysis of the deposited data

How the results depend on the processing

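With 1 library per condition no replicate could be left out. No paired analysis was possible because each condition has a single ChIP library and no test was made. Limiting each list to its 15009 strongest peaks gave 18 peaks at the 10 loci at D14 (51 with all peaks) and 22 in sham (35), a share of D14 peaks without a sham overlap of 22.2% (39.2%), without a D56 overlap of 11.1% (58.8%), and a share of sham peaks with a D56 overlap of 81.8% (62.9%). A fold of 5 or more gave 31 peaks at D14, 19 in sham and 54.8% of D14 peaks without a sham overlap. The first follows from keeping fewer D14 and sham peaks by construction; for the last the cause was not tested. The other values of these kinds stayed within 1.5 times the reported count or inside the reported interval under the alternatives run. Of 180 values for single loci, 130 did so and 50 did not, most of these under a fold of 5 or more and under equal lists (13 each). The D56 input was the smallest, and how far depth limits the D56 calls was not tested.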
